A study of Mus musculus with 16 samples.

Results

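Otx2, Fgf5, Pou3f1, Lef1, Zic2, Etv4 and Etv5 are 7 genes that mark the exit of mouse embryonic stem cells (ESCs) from the naive state, and their RNA was measured in 16 libraries of cultured ESCs. The 7 genes were picked by name among 26127 genes of the deposited table, as known markers of that exit. Otx2 and Fgf5 were chosen also for their low values in cells without Dicer1 and Dnmt1, so their comparisons with those cells are given as a description, with no test. All 7 genes passed the filter on low values, above 1 RPM (reads scaled to a common library size) in at least 4 libraries, which 12892 genes passed in all.

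Ribosomal RNA was depleted from total RNA, and stranded libraries were read from both ends. There were 8 wildtype (WT) libraries, 4 libraries of Dnmt1 -/- cells (Dnmt1 KO) and 4 of Dicer/Dnmt1 -/- cells (Dicer/Dnmt1 KO). The product of Dnmt1 copies DNA methylation onto new strands at cell division, and that of Dicer1 is the enzyme that cuts microRNAs from their precursors. Each library carries a number (1 to 4 in WT, 1 and 2 in either knockout) and a letter, A or B, whose meaning the labels do not give. The labels name E14 as the background strain of all libraries, whereas the study's methods derive the knockout lines from C57BL/6 ESCs with loxP sites in both Dnmt1 alleles. Dicer1 was targeted in that line with CRISPR/Cas9, and colonies were grown from single cells. The study made a line with loxP sites in Dicer1 as well and a line with constitutive loss of Dicer1. The labels do not say which of them gave the Dicer/Dnmt1 KO libraries. Dnmt1 was removed by a Cre recombinase that 4-hydroxytamoxifen activates, as was Dicer1 where it carried loxP sites. The time between Dnmt1 removal and harvest is not given in the labels of these libraries. Cells were cultured in serum with LIF, with or without feeder cells. Nothing states that libraries came from separate lines or cultures, so p-values measure the spread between these libraries, which may in part be technical.

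Naive ESCs resemble the inner cell mass of the blastocyst. As they leave that state they pass through a formative phase toward the primed state of the epiblast after implantation. Signalling by fibroblast growth factors (FGFs) through the kinase ERK drives this step, while LIF holds it back. Otx2 and Pou3f1 (Oct6) encode transcription factors that act with Oct4 on enhancers of the epiblast, Fgf5 a secreted growth factor widely used as its marker, and Zic2 a zinc finger factor. Lef1 binds β-catenin and activates Wnt targets, and Etv4 and Etv5 are ETS factors whose transcription follows FGF and ERK activity. In serum with LIF some cells express such genes while most remain naive. In bulk RNA, fewer cells that express a gene and less RNA per cell cannot be told apart.

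The libraries held 31455000 to 52539000 reads, and 3 reads, the upper limit that a count of 0 allows, stood for 0.0571 to 0.0954 RPM. This limit covers counting error only. The targeted genes followed the labels. Dnmt1 RNA lay at 4.17 to 4.64 log2 RPM in the 8 knockout libraries of both kinds, below WT (5.55 to 7.66). Dicer1 RNA lay at 3.68 to 4.06 log2 RPM in Dicer/Dnmt1 KO, below WT (4.56 to 5.68) and Dnmt1 KO (5.28 to 5.68). WT 4A and WT 4B stood apart from the other WT libraries, with Dnmt1 at 5.69 and 5.55 log2 RPM beside 7.40 to 7.66. For the 7 genes, some results against WT are therefore given below also without these 2 libraries. These are the results whose call or direction changed, or whose value moved by over 1.5 times. For the gene lists and other named genes, such changes are given only in part. The 6 ESC markers, among them Pou5f1, Sox2 and Nanog, summed to 1090 to 1388 RPM in WT, 946 to 1149 RPM in Dnmt1 KO and 1246 to 1335 RPM in Dicer/Dnmt1 KO. Of these markers, Sox2 and Nanog were called lower in Dnmt1 KO than in WT, and the other 4 were not called. Y-linked genes, 5 in all, summed to at most 1.37 RPM in WT and to at least 14.4 RPM in the knockouts, so WT and knockout cells differed in more than the named genotype, and this difference and the genotype cannot be told apart. The 7 feeder fibroblast markers summed to 29.4 to 53.3 RPM in WT, 61.2 to 77.8 RPM after loss of Dnmt1 alone and 63.2 to 115.7 RPM after loss of both genes. The 6 primitive endoderm markers summed to 12.1 to 21.4, 40.1 to 55.0 and 19.9 to 27.1 RPM in the same order. The 4 trophoblast markers summed to 0.987 to 1.65, 2.58 to 4.00 and 1.92 to 2.43 RPM, and Cdx2 and Ascl2 were called higher in Dnmt1 KO than in WT. No gene of these 3 lists was at 0 in all libraries of a group, and the part of these cells in the results below was not tested.

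The promoters of Otx2 and Fgf5 are shown because both genes were chosen also for their low values in Dicer/Dnmt1 KO cells. These cells lack Dicer1 as well as Dnmt1, an enzyme of CpG methylation, and the part of methylation was not tested. Each runs from 250 bases before to 50 after a transcription start in RefSeq (build GRCm38.p6), 5′ to 3′, with CpG dinucleotides in capitals. For Otx2 the most upstream of 4 starts is shown.
Otx2, chr14:48667595-48667894, minus strand: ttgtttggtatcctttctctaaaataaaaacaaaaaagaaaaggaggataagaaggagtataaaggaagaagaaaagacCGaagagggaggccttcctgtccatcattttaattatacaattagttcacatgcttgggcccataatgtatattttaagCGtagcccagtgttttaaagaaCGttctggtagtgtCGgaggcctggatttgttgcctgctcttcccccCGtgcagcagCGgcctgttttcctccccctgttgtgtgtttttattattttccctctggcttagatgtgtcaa
Fgf5, chr5:98253934-98254233, plus strand: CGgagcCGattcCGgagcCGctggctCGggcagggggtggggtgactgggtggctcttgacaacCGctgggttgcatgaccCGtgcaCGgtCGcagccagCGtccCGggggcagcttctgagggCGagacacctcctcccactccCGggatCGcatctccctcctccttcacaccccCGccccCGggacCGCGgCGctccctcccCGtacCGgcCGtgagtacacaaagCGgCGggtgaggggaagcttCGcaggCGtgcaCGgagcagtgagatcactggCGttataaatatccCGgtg

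The Fgf5 promoter held 29 CpGs, a number that 12.9% of the 32851 promoters in the table reached. The Otx2 promoter shown held 6, which 56.4% reached, and the promoters of the other Otx2 starts held 8, 16 and 11. The 2 promoters of Etv5 held 37 and 19 CpGs and the 4 of Lef1 held 5 to 21, beside a median of 7 over all promoters. Pou3f1, Zic2 and Etv4 had no entry. Of 3 motifs searched on both strands, the ETS core CCGGAA occurred 1 time in the Fgf5 promoter and in 14.9% of all promoters. The OTX motif TAATCC occurred 1 time, at the third Otx2 start (7.06% of all promoters). The TCF/LEF motif CTTTGA occurred 2 times at the most downstream Lef1 start (16% of all promoters). Methylation was not among the measurements analysed here, and a match is a description of the letters only.

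Mature microRNAs need Dicer1, and those of the miR-290 cluster are abundant in ESCs. MicroRNA levels were not among the measurements analysed here. Of the microRNAs of this cluster 3 are shown, with the seed (bases 2 to 8) in capitals, because cutting them from their precursors takes Dicer1. All 3 share 1 seed, and their RefSeq sequences read
mmu-miR-291a-3p: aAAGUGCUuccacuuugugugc
mmu-miR-294-3p: aAAGUGCUucccuuuugugugu
mmu-miR-295-3p: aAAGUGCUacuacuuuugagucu
A complement of this seed, AGCACTT, was found in the 3′ UTR of 1 of the 7 genes, Lef1, beside 13.4% of the 19915 genes with an annotated 3′ UTR. No other seed was searched. The Lef1 match is in capitals within the stretch chr3:130926985-130927013 of NCBIM37, plus strand, which is printed here.
Lef1 3′ UTR: gtaaaaagcccAGCACTTgaattgttctt

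Set per kilobase of the longest annotated transcript (RPKM), the WT levels ran from Etv5 (30.6 RPKM ± 3.88, SD, n = 8) through Etv4 (12.3 ± 2.90), Otx2 (6.41 ± 1.58), Pou3f1 (4.39 ± 1.29), Zic2 (2.99 ± 1.45) and Fgf5 (1.47 ± 0.784) to Lef1 (0.605 ± 0.163). The 3 highest did not overlap over the WT libraries, whereas each gene from Otx2 to Lef1 overlapped its neighbour in this order. In Dnmt1 KO, Etv5 (36.4 RPKM), Etv4 (20.5) and Pou3f1 (4.88) led, followed by Lef1 (1.91), Otx2 (1.32), Fgf5 (1.17) and Zic2 (1.12), of which each overlapped the next. In Dicer/Dnmt1 KO no neighbours overlapped. The order there was Etv5 (39.2 RPKM), Etv4 (10.2), Zic2 (3.10), Pou3f1 (1.63), Lef1 (0.882), Otx2 (0.486) and Fgf5 (0.263). Otx2 moved from the third place to the sixth and Zic2 from the fifth to the third.

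**Figure D1:**
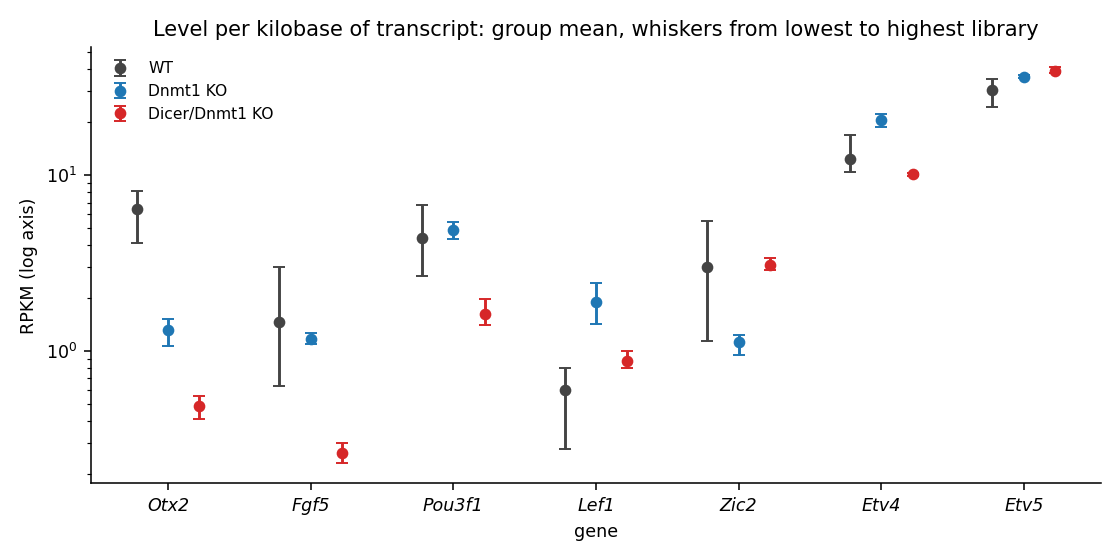
Level of each gene per kilobase of its longest annotated transcript (RPKM, log axis), by group. Points are group means (n = 8, 4 and 4 libraries) and whiskers run from the lowest to the highest library. Otx2 spans 6.41 RPKM in WT to 0.486 RPKM in Dicer/Dnmt1 KO, while Etv5 is at 24.4 RPKM or more in every library.

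Against WT, 5 of the 7 genes passed the test in Dnmt1 KO, beside 41.0% of the 12892 genes tested. Otx2 and Zic2 fell, Lef1, Etv4 and Etv5 rose, and Fgf5 and Pou3f1 were not called. This count and the others below rest on limma's moderated test, adjusted over all tested genes after Benjamini and Hochberg, at a threshold of 0.05. Of the 5 genes chosen only as markers, 3 passed in Dicer/Dnmt1 KO against WT, near the 61.9% of all genes. Their choice was made with earlier results of these data known. Pou3f1 fell, and Lef1 and Etv5 rose. Against Dnmt1 KO, 4 of these 5 passed, beside 36.3% of all genes. Pou3f1, Lef1 and Etv4 fell and Zic2 rose. The comparisons share their control libraries and are not independent of each other. When A and B of a number were averaged, the 3 counts became 3, 1 and 2.

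**Figure D2:**
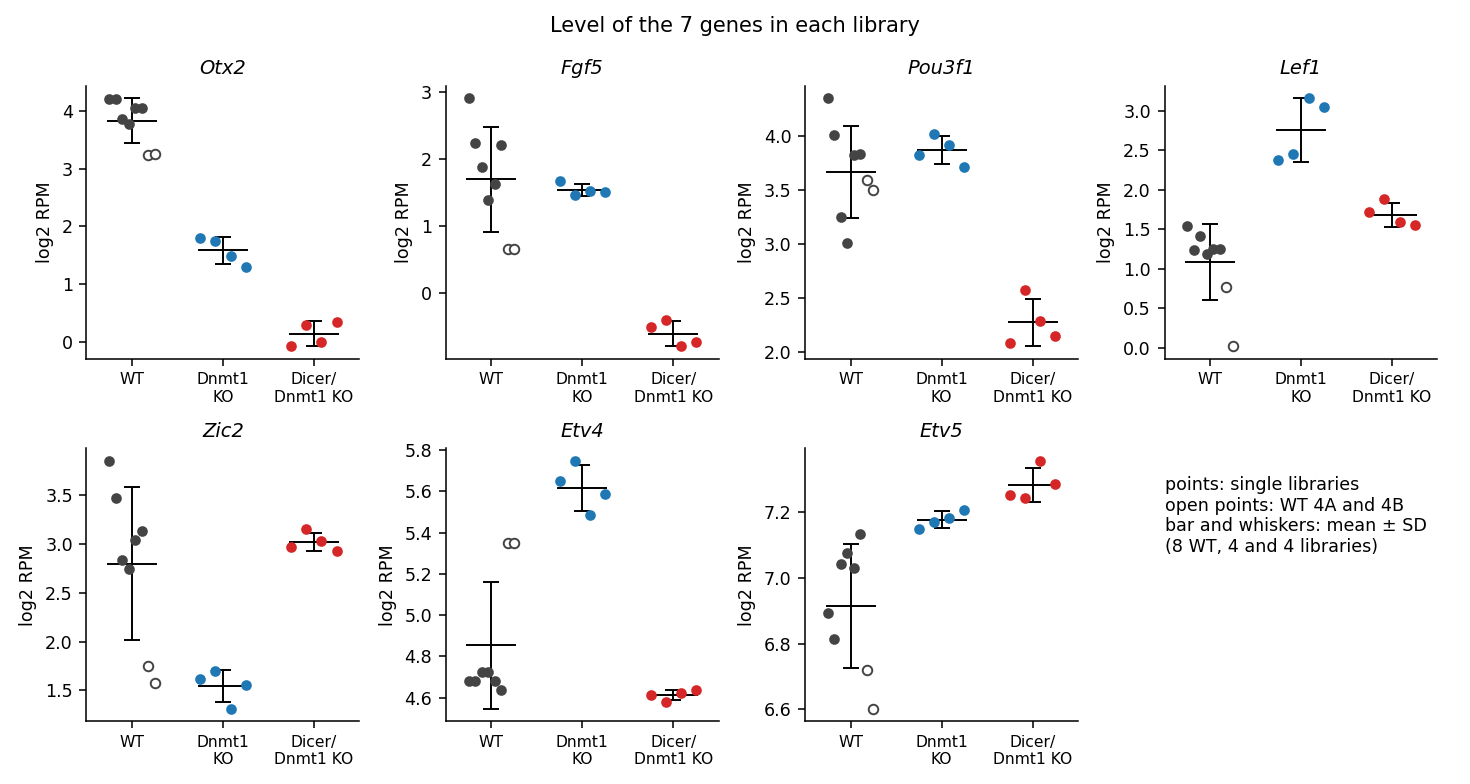
Log2 RPM of the 7 genes in each of the 16 libraries, by group. Points are libraries (open points are WT 4A and WT 4B), and bars with whiskers are the mean ± SD over 8, 4 and 4 libraries. Otx2 steps down from WT (3.23 to 4.22) through Dnmt1 KO (1.30 to 1.79) to Dicer/Dnmt1 KO (-0.08 to 0.35), and Zic2 is low in Dnmt1 KO and in WT 4A and WT 4B.

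Otx2 (ENSMUSG00000021848, 4 exons, chr14:49277354-49287319 of NCBIM37, minus strand) encodes the homeodomain factor that redirects Oct4 to enhancers of the formative state. In WT it ranged from 3.23 to 4.22 log2 RPM with a median of 3.95. In Dnmt1 KO it was 1.79, 1.75, 1.49 and 1.30 log2 RPM in 1A, 1B, 2A and 2B. In Dicer/Dnmt1 KO it was -0.08, 0.29, -0.01 and 0.35 log2 RPM, from only 35 to 40 reads per library. The 3 groups did not overlap, and the gap between the closest libraries was 1.44 log2 units from WT to Dnmt1 KO and 0.95 from there to Dicer/Dnmt1 KO. Otx2 fell 4.75-fold in Dnmt1 KO against WT (log2 fold change -2.25, SE 0.18, adjusted p = 4.31e-08, lower in 4 of 4 libraries). This comparison does not involve Dicer/Dnmt1 KO, but it shares the WT and Dnmt1 KO libraries with those on which Otx2 was chosen. It held under all 17 alternatives and on leaving out each library in turn, with log2 fold changes of -2.44 to -1.93. Against WT, Otx2 in Dicer/Dnmt1 KO lay 12.9-fold lower (log2 difference -3.69), and against Dnmt1 KO 2.72-fold lower (-1.44). These differences were used to choose the gene and were not tested. On a scale of log2(RPM + 1) the latter was -0.93.

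Fgf5 (ENSMUSG00000029337, 3 exons, chr5:98683203-98706049, plus strand) encodes a secreted FGF that is low in naive cells and abundant in the epiblast after implantation. WT libraries varied widely, from 0.66 to 2.91 log2 RPM with a median of 1.76. In Dnmt1 KO it was 1.67, 1.47, 1.53 and 1.51 log2 RPM, inside the WT range. The lowest WT libraries were WT 4A and WT 4B, both at 0.66, and the next was WT 2B at 1.40. In Dicer/Dnmt1 KO it was -0.51, -0.41, -0.80 and -0.73 log2 RPM, from 19 to 26 reads per library, below every other library. The difference between Dnmt1 KO and WT did not pass the test (log2 fold change -0.15, SE 0.32, adjusted p = 0.728). Its 95% interval, from -0.82 to 0.52 log2 units, still allows changes of either sign. Without WT 4A and WT 4B the log2 fold change was -0.50 (adjusted p = 0.0729). In Dicer/Dnmt1 KO, Fgf5 lay 4.95-fold below WT (log2 difference -2.31) and 4.46-fold below Dnmt1 KO (-2.16), values that were used to choose it. On a scale of log2(RPM + 1) these differences were -1.39 and -1.24. Otx2 thus had an intermediate level in Dnmt1 KO, whereas Fgf5 in Dnmt1 KO lay within the WT range. Without WT 4A and WT 4B, Fgf5 in Dnmt1 KO lay toward the lower end of that range.

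Pou3f1 (ENSMUSG00000078236, 1 exon, chr4:124334896-124337899, plus strand) encodes a POU domain factor of the epiblast and of the neural lineage. It ranged from 3.01 to 4.35 log2 RPM in WT, with a median of 3.70. Dnmt1 KO libraries had 3.82, 4.02, 3.91 and 3.71 log2 RPM, and Dicer/Dnmt1 KO libraries 2.08, 2.58, 2.29 and 2.15. All 4 Dicer/Dnmt1 KO libraries were below all 12 others, while Dnmt1 KO overlapped WT. Pou3f1 fell 2.62-fold in Dicer/Dnmt1 KO against WT (log2 fold change -1.39, SE 0.18, adjusted p = 5.69e-06). Set against Dnmt1 KO the fall was 3.01-fold (-1.59, SE 0.21, adjusted p = 2.56e-05). Both calls held under all 17 alternatives. The change in Dnmt1 KO against WT was not called (log2 fold change 0.20, adjusted p = 0.403, 95% interval -0.19 to 0.59). Against WT, Pou3f1, which was chosen only as a marker, had the lowest fold in Dicer/Dnmt1 KO after Otx2 and Fgf5.

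Lef1 (ENSMUSG00000027985, chr3:130813389-130927274, plus strand) encodes the member of the TCF/LEF family that mainly activates Wnt targets. It was scarce in WT, with 0.02 to 1.54 log2 RPM and a median of 1.24. Dnmt1 KO libraries had 2.38, 2.45, 3.16 and 3.05 log2 RPM, and Dicer/Dnmt1 KO libraries 1.72, 1.88, 1.59 and 1.55. Dnmt1 KO was the highest group without overlap, and Dicer/Dnmt1 KO lay between it and WT. Lef1 rose 3.19-fold in Dnmt1 KO against WT (log2 fold change 1.67, SE 0.23, adjusted p = 1.86e-05), a call that all 17 alternatives kept. It was 2.11-fold lower in Dicer/Dnmt1 KO than in Dnmt1 KO (log2 fold change -1.07, SE 0.26, adjusted p = 0.00436), but this was lost with A and B averaged (adjusted p = 0.0776). This call held under 14 of the 17 alternatives. The rise of 1.51-fold in Dicer/Dnmt1 KO against WT (log2 fold change 0.60, SE 0.23, adjusted p = 0.0303) was the weakest call and was lost under 8 of the 17 alternatives. The highest WT library was 0.004 log2 units below the lowest Dicer/Dnmt1 KO library. Averaging A and B gave an adjusted p of 0.133 and an estimated correlation within numbers an adjusted p of 0.112, and the call was also lost without Dicer/Dnmt1 KO 1A (0.0656) or 1B (0.0889). Without WT 4A and WT 4B the log2 fold change was 0.37 (adjusted p = 0.0443), so that these 2 libraries moved it by over 1.5 times.

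Zic2 (ENSMUSG00000061524, 2 exons, chr14:122874604-122879074, plus strand) encodes a zinc finger factor that occupies enhancers in ESCs and the epiblast. WT libraries ranged from 1.57 to 3.85 log2 RPM with a median of 2.94, and the lowest were WT 4A and WT 4B at 1.75 and 1.57. Dnmt1 KO libraries had 1.62, 1.70, 1.31 and 1.56 log2 RPM, and Dicer/Dnmt1 KO libraries 2.96, 3.15, 3.03 and 2.93. Dnmt1 KO thus reached the level of WT 4A and 4B, and Dicer/Dnmt1 KO fell in the middle of the WT range. Zic2 fell 2.38-fold in Dnmt1 KO against WT (log2 fold change -1.25, SE 0.31, adjusted p = 0.00377) and was 2.78-fold higher in Dicer/Dnmt1 KO than in Dnmt1 KO (1.47, SE 0.36, adjusted p = 0.00421). With A and B averaged, neither passed (adjusted p = 0.0686 and 0.0847), and each call held under 14 of the 17 alternatives. Without WT 4A and WT 4B the fall was larger (log2 fold change -1.63, adjusted p = 6.47e-07). Dicer/Dnmt1 KO and WT were not told apart (log2 fold change 0.22, adjusted p = 0.552, 95% interval -0.44 to 0.88), and the sign changed without WT 4A and WT 4B (-0.16, adjusted p = 0.427).

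Zic5 lies 9705 bases from Zic2 on the opposite strand and encodes a related factor. In WT it ranged from 4.39 to 5.33 log2 RPM, again with WT 4A and WT 4B lowest. It had 3.85, 4.04, 3.65 and 3.60 log2 RPM in Dnmt1 KO and 4.58, 4.78, 4.68 and 4.6 in Dicer/Dnmt1 KO. The order of the groups was that of Zic2 except that WT had the highest mean, and Dnmt1 KO did not overlap the other groups. Zic5 fell in Dnmt1 KO against WT (log2 fold change -1.07, SE 0.16, adjusted p = 3.69e-05). It was higher in Dicer/Dnmt1 KO than in Dnmt1 KO (0.88, SE 0.18, adjusted p = 0.00121), and with A and B averaged the adjusted p was 0.0589. Against WT, Zic5 in Dicer/Dnmt1 KO was not called (-0.20, adjusted p = 0.286), whereas without WT 4A and WT 4B it was (-0.35, adjusted p = 0.0212). A further transcript, 2610035F20Rik, starts 1803 bases from Zic2 on the opposite strand. Whether the counting used strand is not stated in the sources used here.

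**Figure D3:**
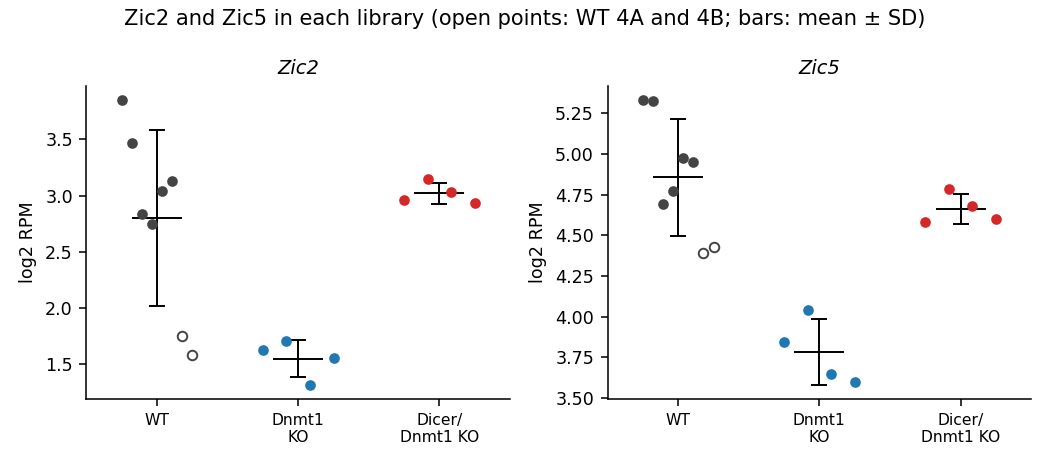
Log2 RPM of Zic2 and Zic5 in each library, by group. Open points are WT 4A and WT 4B, and bars with whiskers are the mean ± SD over 8, 4 and 4 libraries. Zic2 and Zic5 are lowest in Dnmt1 KO (1.55 and 3.78 log2 RPM on average).

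Etv4 (ENSMUSG00000017724, 13 exons, chr11:101631056-101646685, minus strand) and Etv5 (ENSMUSG00000013089, 13 exons, chr16:22381382-22439792, minus strand) encode closely related ETS factors downstream of ERK. Etv4 ranged from 4.64 to 5.35 log2 RPM in WT with a median of 4.70. The 6 libraries of WT 1 to 3 lay within 4.64 to 4.72 and WT 4A and WT 4B at 5.35. Dnmt1 KO libraries had 5.65, 5.75, 5.49 and 5.58 log2 RPM, above all WT libraries. Dicer/Dnmt1 KO libraries had 4.61, 4.58, 4.62 and 4.64 log2 RPM, just under the lowest WT library. Etv4 rose 1.70-fold in Dnmt1 KO against WT (log2 fold change 0.76, SE 0.13, adjusted p = 1.70e-04) and was 2.01-fold lower in Dicer/Dnmt1 KO than in Dnmt1 KO (-1.0, SE 0.15, adjusted p = 7.68e-05). Both calls held under all 17 alternatives. Against WT, Etv4 in Dicer/Dnmt1 KO was not called (log2 fold change -0.24, adjusted p = 0.118). It passed when only WT 3 and 4 were kept (-0.39, adjusted p = 0.0232), and without WT 4A and WT 4B the difference was -0.08 (adjusted p = 0.297).

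Etv5 was the most abundant of the 7 genes, with 6.60 to 7.13 log2 RPM in WT and a median of 6.96. It had 7.15, 7.17, 7.18 and 7.21 log2 RPM in Dnmt1 KO and 7.25, 7.24, 7.36 and 7.29 in Dicer/Dnmt1 KO. Both knockouts lay above all WT libraries by small margins. Etv5 rose 1.29-fold in Dicer/Dnmt1 KO against WT (log2 fold change 0.37, SE 0.09, adjusted p = 0.0015, and 0.0578 with A and B averaged). The rise of 1.20-fold in Dnmt1 KO against WT (log2 fold change 0.26, SE 0.09, adjusted p = 0.0231) was lost with A and B averaged (0.224), with an estimated correlation within numbers (adjusted p = 0.0829) and without Dnmt1 KO 2A (0.0559) or 2B (0.0626). These 2 calls of Etv5 against WT held under 15 and 13 of the 17 alternatives, in the order given. The knockouts did not differ from each other by the test (log2 fold change 0.11, adjusted p = 0.434). Etv4 and Etv5, which share their upstream signal, thus had different values in Dicer/Dnmt1 KO against Dnmt1 KO. The difference between the 2 genes was not tested. Their relative Etv1 was higher in both knockouts than in WT, by log2 fold changes of 0.95 (adjusted p = 3.95e-07) without Dnmt1 and 1.03 (5.99e-08) without both genes.

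**Figure D4:**
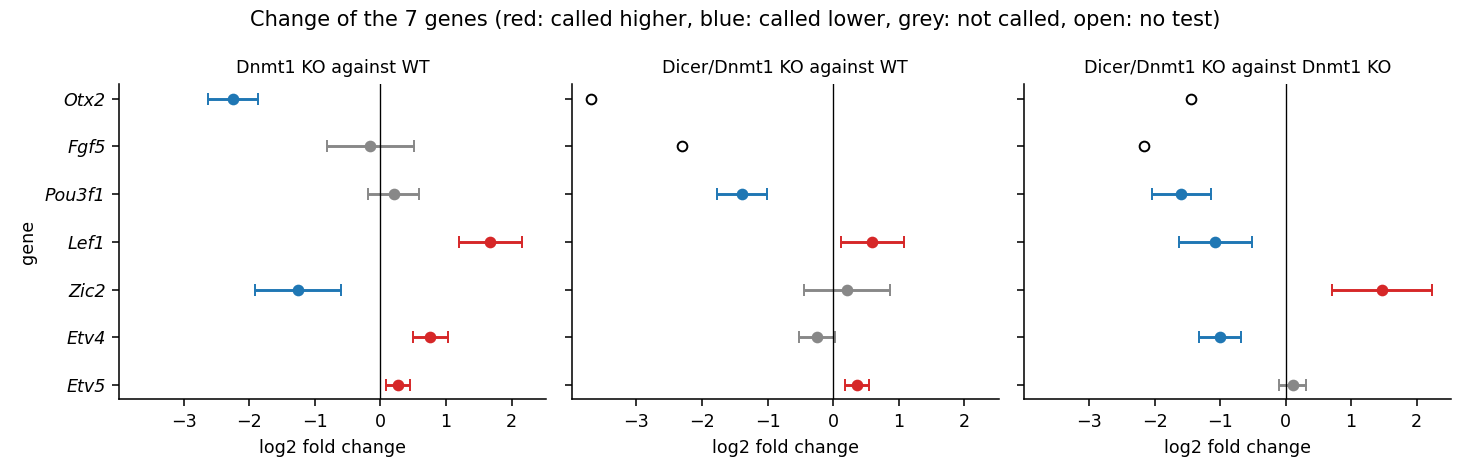
Log2 fold change of each gene in the 3 comparisons, from the limma fit over 16 libraries. Whiskers are 95% intervals, red and blue points were called higher and lower, grey points were not called, and open points without whiskers are the Otx2 and Fgf5 values that were used to choose these genes. Against Dnmt1 KO, Pou3f1 (-1.59), Lef1 (-1.07) and Etv4 (-1.0) lie to the left and Zic2 (1.47) to the right.

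Other genes that respond to ERK were compared through a list of 12, of which 11 were tested. Against Dnmt1 KO, 6 of them were lower in Dicer/Dnmt1 KO and none was higher, with a median log2 fold change of -0.60 beside -0.01 over all genes. In this comparison 36.3% of all genes were called. The 6 were Spry1, Spry2, Spry4, Dusp6, its relative Dusp4 (-0.74, adjusted p = 2.23e-05) and Myc (-1.71, 3.27e-05), and with A and B averaged 5 genes were called. Against WT, 5 fell in Dicer/Dnmt1 KO and 4 rose (median -0.14), where 61.9% of all genes were called. The fall was led by Spry1, Spry2 and Spry4, which encode feedback inhibitors of receptor signalling, and Dusp6, which encodes a phosphatase of ERK. Spry2, for example, had 5.28 to 5.73 log2 RPM in WT, 5.44, 5.44, 5.41 and 5.36 in Dnmt1 KO, and 4.23, 4.25, 4.30 and 3.96 in Dicer/Dnmt1 KO. The first 2 groups overlapped, and every Dicer/Dnmt1 KO library lay below them. Its log2 fold change in Dicer/Dnmt1 KO against WT was -1.39 (SE 0.09, adjusted p = 1.04e-09). Set against Dnmt1 KO it was -1.23 (SE 0.10, adjusted p = 2.15e-07). Dusp6 showed -0.95 (adjusted p = 1.66e-08) and -1.18 (6.75e-08), and Spry4 -0.87 (2.59e-06) and -1.03 (8.58e-06). Spry1 was lower already in Dnmt1 KO (log2 fold change -0.91 against WT, adjusted p = 2.72e-04) and showed -1.51 against WT in Dicer/Dnmt1 KO (adjusted p = 5.67e-07). The knockouts overlapped for this gene, and its call between them (-0.60, adjusted p = 0.0185) was the one lost with A and B averaged (0.147). The 4 genes called higher against WT became 1 with A and B averaged and 2 without WT 4A and WT 4B. In Dnmt1 KO against WT 4 of the 11 rose and 1 fell (2 and 1 with A and B averaged), among them Dusp6 with 0.23 (adjusted p = 0.0252, and 0.209 with A and B averaged). There 41.0% of all genes were called. Without WT 4A and WT 4B, 1 gene was called higher and 6 lower between the knockouts. Etv4, but not Etv5, was thus called lower beside Dusp6, Spry2 and Spry4 in the comparison with Dnmt1 KO.

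**Figure D5:**
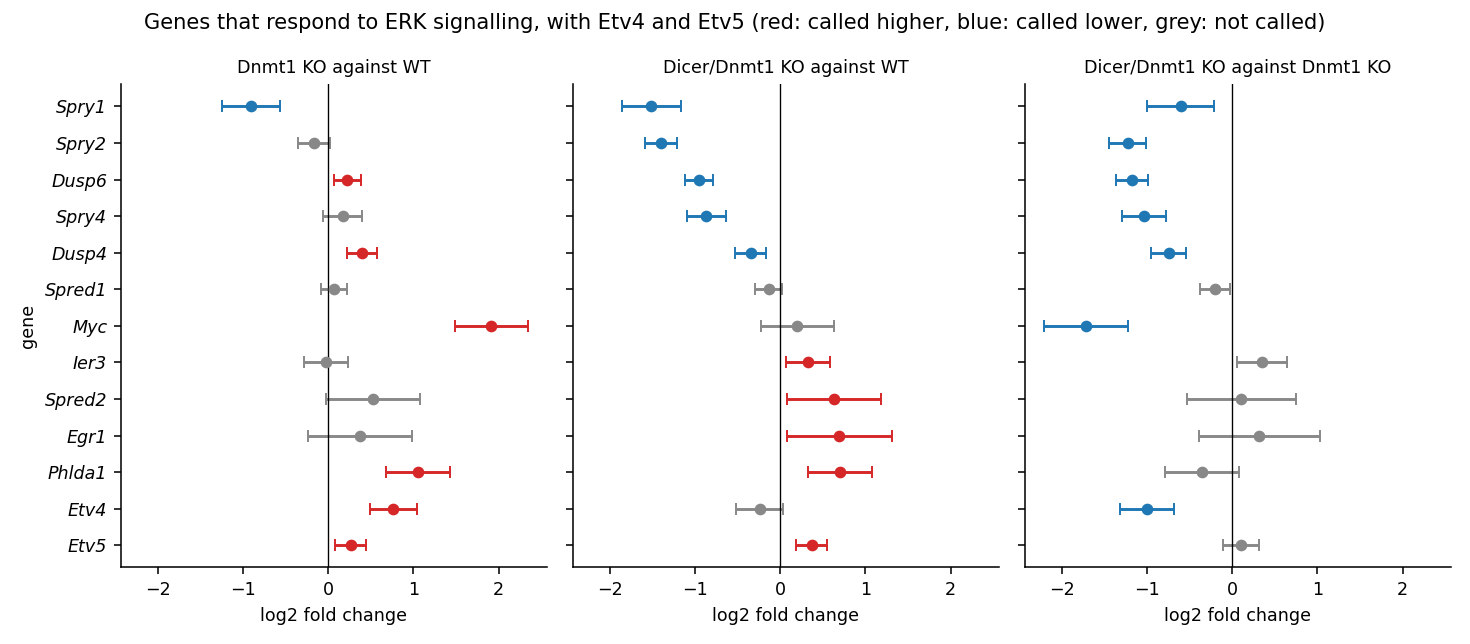
Log2 fold change of the 11 tested ERK response genes, ordered by their change in Dicer/Dnmt1 KO against WT, with Etv4 and Etv5 beneath. Whiskers are 95% intervals from limma, red and blue points were called higher and lower, and grey points were not called. In the comparison of the knockouts 6 of the 11 lie to the left as blue points, as does Etv4 (-1.0), while Etv5 (0.11) is grey.

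Of 11 tested FGF ligands and receptors, 5 rose and 2 fell in Dicer/Dnmt1 KO against WT (median log2 fold change 0.31, beside 0.02 over all genes). These 7 calls, and the 9 among 13 tested genes of the ERK cascade, are near the 61.9% called over all genes. Fgf8, a ligand of the epiblast and primitive streak, fell by 2.61 on the log2 scale (SE 0.55, adjusted p = 5.44e-04), from a WT mean of 1.08 RPM to 3 to 10 reads per library. Fgf15 followed with -0.97 (adjusted p = 0.0361, and 0.136 with A and B averaged). Fgf1 rose by 1.91 (adjusted p = 5.87e-06) and Fgfrl1, a receptor without a kinase domain, by 0.65 (adjusted p = 3.55e-04). In the cascade 5 genes rose and 4 fell in the same comparison. With A and B averaged, the FGF counts became 3 higher and 1 lower and the cascade counts 2 higher and 2 lower. The adaptor Frs2 rose by 1.11 (adjusted p = 2.69e-04), the exchange factor Sos1 by 1.09 (1.15e-04) and the adaptor Grb2 by 0.76 (0.00634, and 0.051 with A and B averaged), while Nras fell by 0.96 on the log2 scale (3.30e-08). In Dnmt1 KO against WT, 4 FGF genes rose and 2 fell, and 5 cascade genes rose and 1 fell. With A and B averaged, 1 FGF gene was higher and 1 lower, and none of the cascade was called. There were 4 FGF genes and 2 cascade genes lower without WT 4A and WT 4B. Against Dnmt1 KO, 3 FGF genes were higher and 1 lower in Dicer/Dnmt1 KO, and 2 cascade genes were higher and 4 lower. These became 1 and 0, and 0 and 2, with A and B averaged. Over all genes, 41.0% were called in Dnmt1 KO against WT and 36.3% between the knockouts.

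Among 14 other tested genes of the formative and primed states, 9 rose and 1 fell in Dnmt1 KO against WT, with a median log2 fold change of 0.54 beside 0.04 over all genes. In Dicer/Dnmt1 KO against Dnmt1 KO, 7 were lower and 1 higher (median -0.39). With A and B averaged these counts became 7 and 1, and 3 and 0. Against WT, Dicer/Dnmt1 KO had 3 higher and 2 lower (median -0.15), and 6 lower without WT 4A and WT 4B. Over all genes, 41.0%, 36.3% and 61.9% were called in these comparisons, in the order given. In the last, 9 of the 14 were not called, so a smaller share of these genes than of all genes was called. Wnt8a, a Wnt ligand of the epiblast, rose by 0.97 in Dnmt1 KO against WT (adjusted p = 0.00975, and 0.0558 with A and B averaged) and was 2.12 log2 units lower in Dicer/Dnmt1 KO than in Dnmt1 KO (adjusted p = 8.51e-05). Utf1, a chromatin factor of pluripotent cells, fell in Dicer/Dnmt1 KO against WT (log2 fold change -0.63, adjusted p = 0.00331). Cdh2, encoding N-cadherin, and Grhl2, an epithelial factor, rose there by 1.05 (adjusted p = 2.55e-04) and 0.76 (2.47e-06). Otx2 and Zic2 fell in Dnmt1 KO against WT, where 9 of these 14 genes rose and Zic5 was the 1 that fell. Without WT 4A and WT 4B, Sall2 was called lower there as well (-0.38, adjusted p = 0.0488).

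Of 12 tested naive genes, 1 rose and 5 fell in Dnmt1 KO against WT, 3 rose and 1 fell in Dicer/Dnmt1 KO against WT, and 5 were higher and none lower in Dicer/Dnmt1 KO than in Dnmt1 KO (median log2 fold change 0.31). With A and B averaged these became 0 and 2, 3 and 1, and 3 and 0. The shares called over all genes in these comparisons were 41.0%, 61.9% and 36.3%. Without WT 4A and WT 4B, Klf4 was also called lower in Dicer/Dnmt1 KO against WT (log2 fold change -0.39, adjusted p = 0.00701). Dppa3 was then no longer called in Dnmt1 KO against WT (-0.27, adjusted p = 0.0538). Klf2, a factor of the naive network, had 1.39 to 3.32 log2 RPM in WT, 2.98, 3.10, 3.05 and 3.17 in Dnmt1 KO, and 5.54, 5.55, 5.33 and 5.40 in Dicer/Dnmt1 KO, above all other libraries. Against WT it rose by 2.98 log2 units (SE 0.25, adjusted p = 2.46e-08), and it was 2.38 higher than in Dnmt1 KO (SE 0.29, adjusted p = 9.93e-06). Prdm14, which represses FGF receptor signalling in ESCs, rose by 1.33 (adjusted p = 8.70e-06) and 1.53 (3.55e-05). Nr0b1 rose by 0.68 against WT (adjusted p = 4.84e-05), and Tcl1 fell by 1.03 on the log2 scale (5.05e-05).

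Around Lef1, 9 of 11 TCF/LEF and Wnt response genes were tested. In Dnmt1 KO against WT 2 rose and 1 fell, in Dicer/Dnmt1 KO against WT 3 rose and 5 fell, and between the knockouts 1 was higher and 1 lower. Over all genes, 41.0%, 61.9% and 36.3% were called in these comparisons. With A and B averaged, the counts against WT became 1 and 1 in Dnmt1 KO and 2 and 2 in Dicer/Dnmt1 KO. Without WT 4A and WT 4B, 4 genes were higher between the knockouts, with Znrf3, Apc and Gsk3b beside Notum. Gsk3b was then also called lower in Dnmt1 KO against WT (log2 fold change -0.23, adjusted p = 0.0494). Ctnnb1 lost its call as lower in Dicer/Dnmt1 KO against WT (-0.14, adjusted p = 0.0917). Notum, which encodes a secreted enzyme that inactivates Wnt ligands, rose against WT by 1.01 in Dnmt1 KO (adjusted p = 1.35e-05) and by 2.70 in Dicer/Dnmt1 KO (5.34e-11). Rnf43 and Znrf3 encode related ligases that remove Wnt receptors. Rnf43 fell by 1.15 on the log2 scale in Dicer/Dnmt1 KO against WT (adjusted p = 0.0355, and 0.106 with A and B averaged), and Znrf3 rose by 1.06 (1.02e-04). Cdx1 fell by 0.93 on the log2 scale (0.0107, and 0.0731 with A and B averaged). Axin2, a widely used Wnt target, was the 1 gene lower between the knockouts (log2 fold change -1.17, SE 0.22, adjusted p = 4.63e-04, and 0.0301 with A and B averaged). Its mean was highest in Dnmt1 KO (1.86 log2 RPM), as that of Lef1 was, followed by WT (1.49) and Dicer/Dnmt1 KO (0.69), and its libraries in Dnmt1 KO overlapped those of WT. Notum was highest in Dicer/Dnmt1 KO. The paralogs of Lef1 shared its calls only in part, and their difference from it was not tested. Tcf7 was not called in any comparison (adjusted p of 0.484, 0.638 and 0.829), but without WT 4A and WT 4B its values against WT were -0.49 in Dnmt1 KO (adjusted p = 0.00157) and -0.40 in Dicer/Dnmt1 KO (0.00406). Tcf7l1 passed narrowly in Dicer/Dnmt1 KO against WT (log2 fold change 0.71, adjusted p = 0.0499, and 0.133 without WT 4A and WT 4B), and Tcf7l2 rose there by 1.10 (adjusted p = 0.0074, and 0.0667 with A and B averaged). Of the paralogs of the 7 genes, Otx1, Crx, Pou3f2, Pou3f3, Pou3f4, Zic1 and Zic4 did not pass the filter and stayed at or below -1.51 log2 RPM in every library.

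The genes whose log2 RPM followed Otx2 most closely over the 16 libraries were Tdrd5 (Pearson's r = 0.988), Rragb (0.981) and Zfp334 (0.979), out of 11762 candidates of which 244 had r above 0.9. For Fgf5 they were Gja1 (0.966), Rlim (0.951) and Slc39a10 (0.949), with 38 above 0.9. Tdrd5 stepped from 2.88 log2 RPM ± 0.19 (SD, n = 8) in WT to 2.09 ± 0.03 (n = 4) in Dnmt1 KO and 1.40 ± 0.09 (n = 4) in Dicer/Dnmt1 KO, an order shared with Otx2. Gja1, encoding connexin 43, had 6.57 ± 0.24, 6.44 ± 0.17 and 5.47 ± 0.14, close in WT and Dnmt1 KO and lower in Dicer/Dnmt1 KO as Fgf5 was. The libraries fall into 3 groups, so these values describe mainly the order of the groups.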

How the data were processed

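Total RNA was sequenced from 16 ESC libraries (8 WT, 4 Dnmt1 KO, 4 Dicer/Dnmt1 KO), grouped by the labels' genotype. Per the methods and the submitters' processing notes, the authors trimmed reads with Trim Galore 0.3.5, aligned them with TopHat2 2.0.11 to NCBIM37 (the notes also list GRCm38), dropped alignments of low mapping quality, and quantified genes in SeqMonk as log2 RPM, that is, log2 reads scaled to a common library size. The deposited values are these log2 RPM. A further 35 value columns of other samples were not used. Set back to the linear scale, at least 99.99% of values in each library gave whole reads (tolerance 0.05), and a gene without reads is written as 0.9 read. Of 26127 genes, 26081 matched GENCODE M1, which gave identifiers, exons and transcript lengths on NCBIM37. Promoters and microRNAs came from RefSeq tables (GRCm38.p6), in which 4 of the 7 genes had promoters.

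limma 3.58.1 in R 4.3.3 fitted 3 group means to the deposited log2 RPM of genes above 1 RPM in at least 4 libraries, with an intensity trend. p-values were adjusted over all 12892 tested genes (Benjamini-Hochberg, threshold 0.05). The fit used the deposited log2 values, and weights from voom on the recovered reads were an alternative. Depth of 31455000 to 52539000 reads per library set the precision of low genes such as Fgf5. A and B libraries of a number differed by more than sampling noise (chi-square per gene 2.54 to 16.3) but were closer to each other (median SD of the log2 difference 0.253, n = 8) than libraries of different numbers (0.379, n = 32). They entered as separate replicates, so SEs may be too small, and averaging them was an alternative. Other alternatives varied the scaling, filter, pseudocount, variance model, libraries and pairing, as the closing section reports.

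The 7 genes and all gene lists were chosen with earlier results of these data known. Genes named besides the 7 are Dnmt1 and Dicer1, the tested paralogs (1 item is not reported here), the up to 4 genes of each list with the largest change in Dicer/Dnmt1 KO against WT, and the 3 genes closest to Otx2 and to Fgf5 over the 16 libraries, leaving out predicted genes, clones and small RNAs. Dusp4, Myc, Axin2, Sall2, Apc, Gsk3b, Ctnnb1, Klf4, Dppa3, the named cell type markers and the Zic2 neighbour 2610035F20Rik were named after their values were seen. Neural markers summed to 22.6 to 68.6 RPM in WT, 24.5 to 28.7 in Dnmt1 KO and 21.5 to 27.5 in Dicer/Dnmt1 KO, and primitive streak markers to 4.35 to 5.78, 4.26 to 4.68 and 3.37 to 4.10 RPM.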

Additional observations from a re-analysis of the deposited data

How the results depend on the processing

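The comparisons of Otx2 in Dnmt1 KO, Pou3f1 in Dicer/Dnmt1 KO, Lef1 in Dnmt1 KO and Etv4 in Dnmt1 KO against WT kept their direction and call under all 17 alternatives. Averaging A and B left 3, 1 and 2 of the 7 or 5 genes called in Dnmt1 KO against WT, Dicer/Dnmt1 KO against WT and Dicer/Dnmt1 KO against Dnmt1 KO, and 2288, 5134 and 1225 of all genes. This alternative has fewer samples. Letter A libraries alone gave 3 of 7 in the first and 2 of 5 in the last comparison and 1833, 4002 and 951 of all genes, and letter B libraries alone 3, 1 and 2 genes and 1610, 4813 and 667 of all genes. With the number within a group as a random effect (correlation 0.667), 2723, 5755 and 2109 of all genes and 4, 2 and 4 of the 7 or 5 genes were called. Fgf5 in Dnmt1 KO against WT changed sign with WT 3 and 4 only (log2 fold change 0.26) and without WT 1A (0.020), and its values on leaving out each library ran from -0.30 to 0.020. Zic2 in Dicer/Dnmt1 KO against WT changed sign with WT 1 and 2 only (-0.21), without WT 4A and 4B (-0.16) and with the replicate block (-0.21). The cause was not tested. Whether the numbers pair the samples could not be settled. Correlations of same-numbered deviations ran from -0.34 to 0.58, but each knockout has only numbers 1 and 2, so its deviations from the group mean mirror each other. With the replicate block 6541, 7828 and 6690 of all genes and 6, 2 and 4 of the 7 or 5 genes were called. Fgf5 in Dnmt1 KO against WT was then called (log2 fold change -0.56, adjusted p = 0.0295), and Lef1 in Dicer/Dnmt1 KO against WT was not (0.34, adjusted p = 0.131). Between the knockouts the correlation was -0.22, and crossing their numbers, chosen after seeing the data, gave 7247 genes beside 6396 uncrossed. Quantile normalization changed the split of calls in Dnmt1 KO against WT from 3030 higher and 2259 lower to 2506 and 2907. Removing a trend with transcript length, also added later, changed no call among the 7 genes. Depth limits Fgf5 and Otx2 most, with 19 to 40 reads in Dicer/Dnmt1 KO libraries, and a pseudocount of 1 RPM shrank their differences from WT there to -1.39 and -2.86.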
